A study of Homo sapiens with 18 samples.

Results

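The 37 genes described here encode laminins, collagens, integrins and other parts of the basement membrane and its receptors, out of 26485 genes listed for PANC-1 cells. They were chosen by gene symbol under a rule that used no measured values, but with earlier results of these data known. They comprise 22 genes for matrix ligands and 15 for receptors. The ligand genes are 7 laminin chains, 5 linkers and proteoglycans, 3 collagen IV chains, 6 other collagens and THBS1. The receptor genes are 6 integrin alpha subunits, 6 integrin beta subunits, DAG1, SDC1 and SDC4.

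PANC-1 is a long-cultured human cell line grown from ductal carcinoma of the pancreas, labelled epithelial, and 1 line stands here for the disease. Cells were transfected with an siRNA (control siRNA, or either PKR siRNA 1 or its counterpart PKR siRNA 2) or given a compound (DMSO alone, 400 nM C16 or 800 nM C16). RNA was sequenced after 72 h, with 3 libraries in each group and 18 in all. PKR is the double-stranded RNA-activated kinase encoded by EIF2AK2, and C16 is a small-molecule inhibitor of it that was dissolved in DMSO. The labels place the siRNA libraries in 1 run and the C16 libraries in another, without saying what a run stands for. Each run has a table of its own. Run and treatment type therefore cannot be told apart, and every test stayed within a table.

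The basement membrane is a thin sheet of matrix under epithelial cells. Laminin trimers, each of an alpha, a beta and a gamma chain, and collagen IV form its networks, which nidogens, perlecan (HSPG2) and agrin (AGRN) link together. Cells hold on to it through integrins, which pair an alpha with a beta subunit, and through dystroglycan and syndecans. In carcinoma of the pancreas the same receptors also meet the collagen-rich stroma laid down by stellate cells.

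Reads assigned to genes ran from 1512940 to 1873906 per siRNA library and from 894145 to 1474308 per C16 library, so genes with few reads were measured with wide errors. EIF2AK2, the targeted gene, stood at 95.5, 93.5 and 103 normalized counts with control siRNA. PKR siRNA 1 lowered it to 10.0, 13.6 and 9.65, and PKR siRNA 2 lowered it to 7.96, 8.58 and 9.40, below every control library. With C16, which acts on the protein, EIF2AK2 levels overlapped those with DMSO (45.7 to 54.1 with DMSO, 39.2 to 45.7 at 400 nM and 48.7 to 51.4 at 800 nM). All 6 epithelial markers were read in each table, while the 4 endothelial markers summed to at most 2.14 normalized counts in any library. The epithelial sum, most of it from KRT8, KRT18 and KRT19, moved with the groups, but EPCAM and KRT7 did not always follow it. EPCAM had a mean of 103 normalized counts in control libraries and fell with each siRNA, to 12.3 for PKR siRNA 1 and 10.7 for the other. KRT7 fell with PKR siRNA 2 (18.2 to 4.64), and EPCAM rose at 800 nM C16 (17.8 to 30.3). The sum ran from 5358 to 5451 in control libraries, from 3052 to 3280 in PKR siRNA 1 libraries and from 9586 to 10233 in PKR siRNA 2 libraries. With C16 it went from 7171 to 7572 with DMSO to 6033 to 6544 at 400 nM and 5172 to 5685 at 800 nM. Of 7 fibroblast or stellate markers 3 to 4 were above 0 in each group, and in the siRNA table only COL1A1 reached a mean of 10, against 2 markers in the C16 table. The summed level of the 7 was 84.2 to 117 with control siRNA, 26.3 to 32.2 with PKR siRNA 1, 130.3 to 139 with PKR siRNA 2, 149 to 184 with DMSO, 119.9 to 181 at 400 nM and 80.2 to 117 at 800 nM. Of 4 leukocyte markers 1 reached a mean of 10, CD68, which many tumour lines express. It rose with C16, from a mean of 53.3 normalized counts with DMSO to 158 at 400 nM. The part of these shifts in the results that follow was not tested. In bulk RNA, fewer cells of a type and less RNA per cell cannot be told apart.

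Levels were first set side by side per kb of exon, on the scale of normalized counts per kb, in the groups without PKR knockdown or inhibitor. ITGB1, the beta subunit that most matrix-binding integrins share, had the highest level of the 37 genes, with a mean of 452 per kb with control siRNA and 472 with DMSO. COL18A1, a basement membrane proteoglycan and the source of endostatin, came next with 396 and 256. ITGA3, a laminin receptor subunit, followed at 222 with control siRNA, and ITGB5, a partner of ITGAV, at 211. Among laminin chains the chains of laminin-511 were the most abundant, with 64.6 for LAMA5, 80.5 for LAMB1 and 40.1 for LAMC1 with control siRNA.

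**Figure D1:**
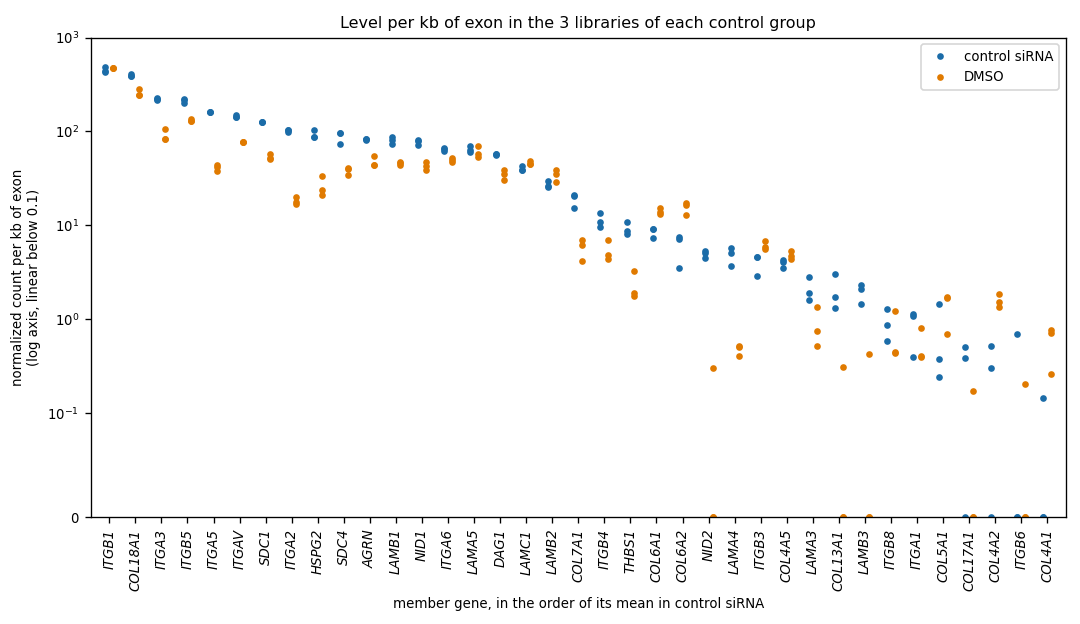
Level of each of the 37 genes, in normalized counts per kb of exon on a log axis that is linear below 0.1, in the 3 control siRNA and the 3 DMSO libraries (points). ITGB1 and COL18A1 lead in both groups, while ITGB6 and COL17A1 are among the lowest genes in both. The 2 groups were normalized separately.

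At the other end, 8 genes of the siRNA table and 9 of the C16 table were too low to test, which required a mean of 10 normalized counts. COL4A1, COL13A1, COL17A1, ITGA1, ITGB6 and ITGB8 were below that mean in both tables. ITGB6, whose product pairs with ITGAV to bind the latent form of TGF-beta, had no reads in 5 of 9 siRNA libraries and 8 of 9 C16 libraries, and was never above 3 reads. COL17A1, a transmembrane collagen of hemidesmosomes, had at most 3 reads in any library. ITGA1, a collagen receptor subunit, ran from 0 to 5 reads in the siRNA table, and ITGB8, another partner of ITGAV, reached 16.1 normalized counts in 1 library of PKR siRNA 2. COL13A1, a transmembrane collagen, was below 10 in the 3 control libraries and at 12.2, 12.7 and 16.4 with PKR siRNA 1. COL4A2 and COL5A1 were tested in the C16 table only, and LAMA4, LAMB3 and NID2 in the siRNA table only. NID2, the second nidogen, and LAMB3 were each at 0 in 7 of 9 C16 libraries and had at most 2 reads in the others.

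COL4A1 and COL4A2, which encode the chains of the common collagen IV trimer, lie head to head on chromosome 13 with starts 127 bases apart. The stretch between them is shown because both genes were near the bottom of the order in the siRNA table. COL4A1 had at most 3 reads and COL4A2 at most 4 in any siRNA library. The C16 table held more of both, with COL4A1 at 1.94, 5.71 and 5.33 normalized counts with DMSO, 6.38, 6.92 and 11.7 at 400 nM and 7.06, 8.53 and 16.2 at 800 nM. The 3 libraries of each C16 dose thus lay above the 3 with DMSO for COL4A1, which was not tested. COL4A2 did not differ between 800 nM C16 and DMSO beyond its error (log2 difference 0.34, 95% interval -0.31 to 1.00). The 126 bases between the starts, chr13:110307158-110307283 of GRCh38.p14 on the plus strand from RefSeq, are printed 5′ to 3′ with matches to GGGCGG (the GC box) and CCAAT (the CCAAT box), on either strand, in capitals.
COL4A1-COL4A2: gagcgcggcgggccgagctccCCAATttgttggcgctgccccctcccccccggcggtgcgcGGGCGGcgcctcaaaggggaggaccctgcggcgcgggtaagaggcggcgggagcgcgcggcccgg
Each motif matched 1 time. In the 126 bases before the start of all 35116 promoters of the RefSeq table, 34.6% held a GC box and 21.1% a CCAAT box.

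With PKR siRNA 1, basement membrane genes fell more often than they rose. Here a gene is said to rise or fall where it passed an adjusted p of 0.05 and changed more than 1.5-fold. Of 29 genes tested 3 rose (10.3%, against 8.53% of all genes tested), and 11 fell (37.9%, against 12.6% of all genes). Among 17 ligand genes 3 rose and 7 fell, with a median log2 fold change of -0.59, and among 12 receptor genes 0 rose and 4 fell, with a median of -0.36. Of the receptor genes limma gave 2 higher at an unadjusted p under 0.05, ITGA3 and ITGB1, and edgeR and DESeq2 called ITGB1. LAMB3, among the 3 that rose, was tested only because its level with this siRNA lifted its mean over the filter. The median over all 10593 genes was -0.01. The other 15 tested genes did not pass, 8 of them with an adjusted p under 0.05 but a smaller fold.

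With PKR siRNA 2 ligand genes moved each way, and more receptor genes fell than rose. Of 29 genes 5 rose (17.2%, against 10.8% of all genes), and 10 fell (34.5%, against 12.8%). Among 17 ligand genes 4 rose and 5 fell, with a median log2 fold change of -0.01. Among 12 receptor genes 1 rose and 5 fell, with a median of -0.37, and 4 of those 5 were integrin alpha subunits (ITGA2, ITGA3, ITGA5 and ITGAV) out of 5 tested. The PKR siRNAs share their control libraries, so their values are not independent. The siRNAs also differed from each other directly, with 10 genes higher and 4 lower with PKR siRNA 2 than with PKR siRNA 1, against 16.4% and 15.3% of all genes.

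With C16 genes of both sides moved each way. At 800 nM 6 of 28 genes rose (21.4%, against 11.6% of all 9963 genes tested) and 9 fell (32.1%, against 14.1%). Ligand genes moved 3 up and 7 down out of 16, and receptor genes 3 up and 2 down out of 12, with median log2 fold changes of -0.15 and 0.01. At 400 nM 7 rose (25.0%, against 7.08% of all genes) and by limma 0 fell (against 5.45%), with 6 lower at an unadjusted p under 0.05, 1 by edgeR and 0 by DESeq2. Of the genes that passed at both doses, each moved the same way. LAMA3, which rose at both, was tested only because its level with C16 lifted its mean over the filter. By limma 0 genes were higher at 800 nM than at 400 nM (against 1.13% of all genes), with 1 at an unadjusted p under 0.05 and 0 by edgeR or DESeq2. The 4 lower genes, LAMA5, LAMB2, HSPG2 and ITGB3, were 14.3% of those tested, against 3.95% of all genes. The call of LAMB2 (-0.59) was lost without 400 nM C16 library 1 or 800 nM C16 library 2 or 3 (-0.52 at the smallest), with a pseudocount of 5, after median-of-ratios rescaling and by edgeR and DESeq2, while COL18A1 (-0.57) passed without 400 nM C16 library 2 or 800 nM C16 library 2 (-0.61 at most in size). In the 4 comparisons with a control, the libraries of the compared groups did not overlap for any gene that passed. The same held for some tested genes that did not pass, so this is no separate support. The share over all genes was not counted.

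**Figure D2:**
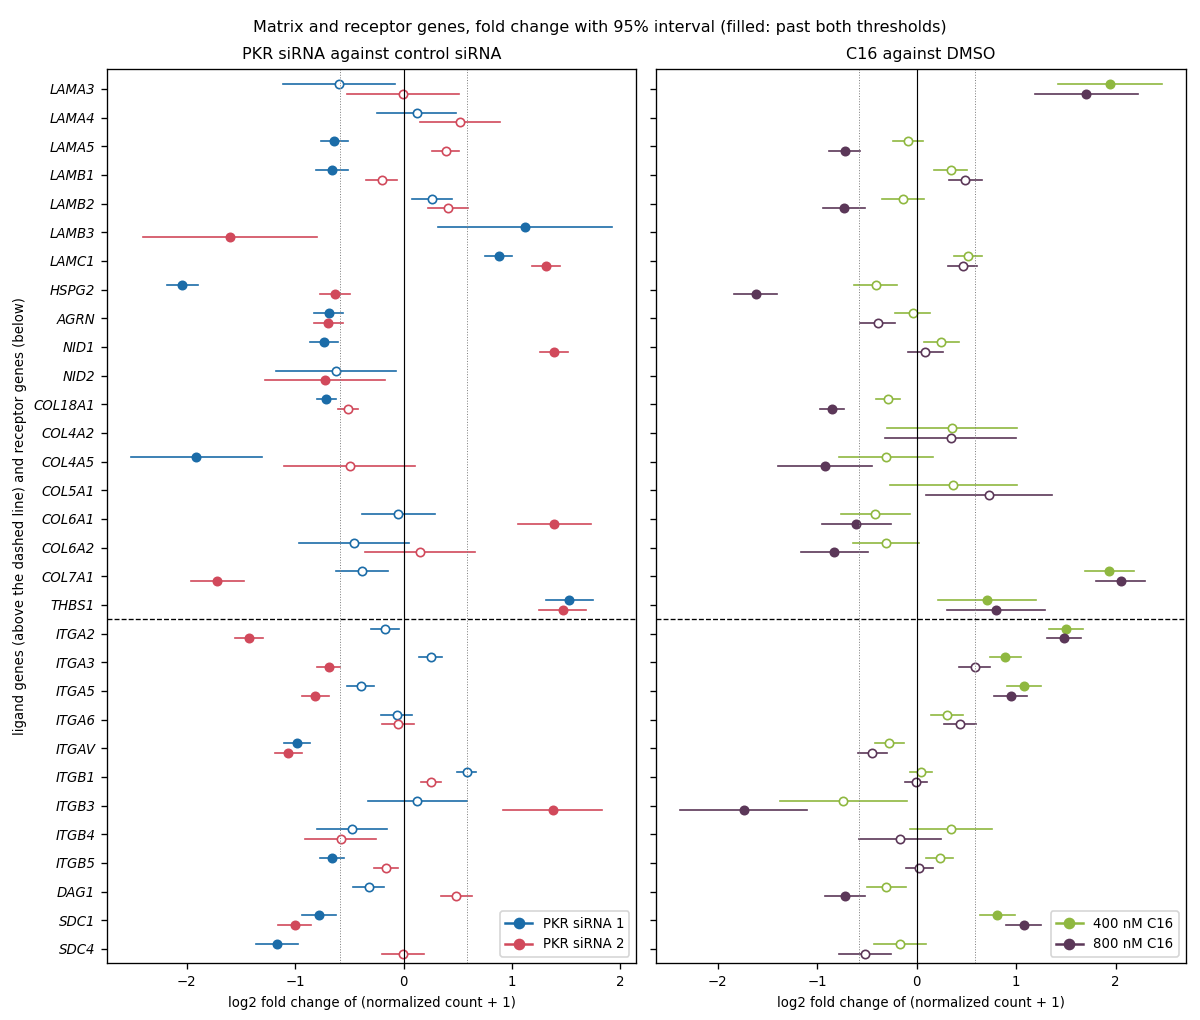
Log2 fold change of (normalized count + 1) with its 95% interval for each gene tested, with ligand genes above the dashed line and receptor genes below; filled points passed both thresholds, and the dotted lines mark a 1.5-fold change. THBS1 lies right of 0 in all 4 comparisons and HSPG2 left of 0, while NID1 and LAMB3 lie on opposite sides for the PKR siRNAs.

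THBS1 and HSPG2 moved the same way with both siRNAs and with 800 nM C16. THBS1 encodes thrombospondin-1, a secreted matricellular protein that binds CD47, integrins and syndecans and activates latent TGF-beta. It stood at 78.0, 63.4 and 57.8 normalized counts with control siRNA, 199, 184 and 194 for PKR siRNA 1, and 202, 184 and 167 for PKR siRNA 2. Both siRNA groups lay wholly above the control and overlapped each other, and THBS1 rose 2.89-fold with PKR siRNA 1 and 2.77-fold with PKR siRNA 2 (limma adjusted p = 7.11e-21 and 3.97e-20). In the C16 table it was low, at 12.6, 23.8 and 13.7 with DMSO, 28.7, 25.4 and 26.6 at 400 nM, and 25.2, 30.5 and 30.5 at 800 nM. Every C16 library lay above the 3 with DMSO, and the rise was 1.63-fold at 400 nM and 1.74-fold at 800 nM (limma adjusted p = 0.0252 and 0.00624). The rise at 400 nM did not pass without any of 4 libraries, DMSO 1, DMSO 3, 400 nM C16 1 or 400 nM C16 3, where its log2 value was as low as 0.54. By DESeq2 neither dose passed, with an adjusted p of 0.0534 at 800 nM. THBS1 is not among the genes that the study listed as raised under all its conditions, at the same thresholds but by another test.

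HSPG2 encodes perlecan, the large heparan sulfate proteoglycan of the basement membrane, and is among the genes that the study itself listed from these libraries, so its direction is not independent evidence. It stood at 1239, 1499 and 1243 normalized counts with control siRNA, 274, 376 and 319 for PKR siRNA 1, and 768, 938 and 862 for PKR siRNA 2. The 3 groups did not overlap, with PKR siRNA 1 lowest. HSPG2 fell by 2.04 on the log2 scale with PKR siRNA 1 (SE 0.07) and by 0.63 with PKR siRNA 2 (SE 0.07), and the siRNAs differed by 1.41 (limma adjusted p = 4.61e-30). The fall with PKR siRNA 2 was under 1.5-fold without control siRNA library 2 (-0.54) or without PKR siRNA 2 library 1 (-0.55). With DMSO it stood at 299, 337 and 475, with 400 nM C16 at 311, 287 and 228, and with 800 nM C16 at 118, 109.7 and 126. The 800 nM libraries lay below all others, a fall of 1.62 on the log2 scale (SE 0.11), while the 400 nM libraries overlapped those with DMSO. Of the exon bases of HSPG2, 11.7% overlap LDLRAD2 on the other strand and the strand setting of the count is not given, but LDLRAD2 was at most 4.30 normalized counts in any library.

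The 250 bases before the RefSeq start (GRCh38.p14) of the genes that moved alike in all 3 conditions, THBS1 (chr15:39580829-39581078, plus strand) and HSPG2 (chr1:21937311-21937560, minus strand), and of those that moved oppositely with the siRNAs, NID1 (chr1:236065091-236065340, minus strand) and LAMB3 (chr1:209652426-209652675, minus strand, the first of several starts listed), are printed 5′ to 3′ on the strand of the gene. Capitals mark matches on either strand to the GC box and the CCAAT box as spelled above. They would also mark the TATA box, searched as TATAAA in these windows, the site of AP-1 transcription factors, searched as TGANTCA likewise, and the site of TEAD transcription factors, searched as GGAATG there.
THBS1: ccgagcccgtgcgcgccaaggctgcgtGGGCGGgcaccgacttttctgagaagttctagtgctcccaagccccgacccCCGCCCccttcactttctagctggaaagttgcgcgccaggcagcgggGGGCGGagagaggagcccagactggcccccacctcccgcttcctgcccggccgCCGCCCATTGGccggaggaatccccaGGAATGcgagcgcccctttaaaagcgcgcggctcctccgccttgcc
HSPG2: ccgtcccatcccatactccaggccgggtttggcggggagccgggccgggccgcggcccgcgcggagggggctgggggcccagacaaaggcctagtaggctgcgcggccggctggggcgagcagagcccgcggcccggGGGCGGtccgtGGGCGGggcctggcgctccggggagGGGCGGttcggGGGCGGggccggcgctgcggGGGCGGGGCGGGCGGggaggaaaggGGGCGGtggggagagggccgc
NID1: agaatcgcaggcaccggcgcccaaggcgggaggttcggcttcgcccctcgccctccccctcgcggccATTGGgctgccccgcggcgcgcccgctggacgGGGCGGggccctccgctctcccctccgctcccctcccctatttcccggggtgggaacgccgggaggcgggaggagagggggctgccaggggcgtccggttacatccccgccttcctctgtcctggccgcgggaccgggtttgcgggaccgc
LAMB3: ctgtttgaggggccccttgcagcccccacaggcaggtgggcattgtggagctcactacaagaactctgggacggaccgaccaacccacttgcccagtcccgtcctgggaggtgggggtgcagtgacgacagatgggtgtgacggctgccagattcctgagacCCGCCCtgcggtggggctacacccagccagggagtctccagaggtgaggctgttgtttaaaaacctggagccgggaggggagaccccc
The HSPG2 window held 8 GC boxes, some of which overlap each other, in 82.8% G and C, and no other motif searched. The THBS1 window held 4 GC boxes, 1 CCAAT box that abuts a GC box, and 1 TEAD site. NID1 held 1 GC box and 1 CCAAT box, and LAMB3 held 1 GC box in the least GC-rich window (64.0%). Over all 35116 promoters, 42.6% held a GC box, 32.0% a CCAAT box, 10.7% a TATA box, 6.57% an AP-1 site and 11.9% a TEAD site in a window of this length. Promoters were matched for 32 of the 37 genes, and a match of letters describes the sequence only.

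NID1 and LAMB3 moved in opposite directions with the PKR siRNAs. NID1 encodes nidogen-1, which bridges laminin and collagen IV. It stood at 426, 474 and 461 normalized counts with control siRNA, 249.9, 285 and 281 for PKR siRNA 1, and 1222, 1164 and 1166 for PKR siRNA 2. The 3 groups lay far apart, with a fall of 0.74 on the log2 scale for PKR siRNA 1 (SE 0.06), a 2.61-fold rise for PKR siRNA 2, and a 4.35-fold difference between the siRNAs (limma adjusted p = 8.68e-44). With C16 NID1 did not pass at either dose, and the difference at 800 nM had a 95% interval of -0.09 to 0.26 on the log2 scale (229, 250.5 and 278 with DMSO, 299.9, 296 and 300.0 at 400 nM, 294, 272 and 239 at 800 nM).

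LAMB3 encodes the beta-3 chain of laminin-332, the laminin that anchors epithelia through hemidesmosomes. It was a low gene, at 10.3, 6.45 and 9.48 normalized counts with control siRNA, 15.6, 23.6 and 21.2 for PKR siRNA 1, and 2.98, 1.07 and 2.82 for PKR siRNA 2. The groups did not overlap, with PKR siRNA 1 above and PKR siRNA 2 below the control, at log2 differences of 1.12 (SE 0.40, limma adjusted p = 0.0179) and -1.60 (SE 0.40, limma adjusted p = 0.00061). The rise with PKR siRNA 1 was lost without control siRNA library 2 (0.94) or without library 2 (1.00) or 3 (1.07) of PKR siRNA 1, so that call rests on few reads. LAMB3 reached the mean of 10 needed for a test, at 10.4 over the 9 libraries, only through PKR siRNA 1, with group means of 8.73, 20.1 and 2.29 for the control and the siRNAs. COL13A1, in the same order at 6.32, 13.8 and 2.07, was not tested. With no filter on low values both LAMB3 differences still passed (limma adjusted p = 0.0465 and 0.00306). In the C16 table it was at 0, 1.90 and 0 with DMSO, 0 in the 3 libraries at 400 nM, and 0, 0 and 1.91 at 800 nM.

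LAMA3, the alpha-3 chain of the same laminin, did not follow LAMB3. It was at 31.8, 21.5 and 18.0 normalized counts with control siRNA, 13.3, 15.4 and 16.4 for PKR siRNA 1, and 22.9, 25.7 and 20.7 for PKR siRNA 2. It passed against control with neither siRNA in the fit of all libraries, at -0.59 (limma adjusted p = 0.0542) and -0.01, although with PKR siRNA 1 it fell by edgeR and without control siRNA library 3 (a log2 value of -0.76). With C16 it went from 5.83, 15.2 and 8.38 with DMSO to 33.0, 34.6 and 47.9 at 400 nM and 28.2, 32.9 and 35.3 at 800 nM. All 6 C16 libraries lay above those with DMSO, a 3.84-fold rise at 400 nM and a 3.26-fold rise at 800 nM (limma adjusted p = 2.0e-08 and 1.8e-07). Its mean was 9.81 with DMSO, 38.5 at 400 nM and 32.1 at 800 nM. LAMA3 thus reached the mean of 10 needed for a test in the C16 table only through the C16 groups. With no filter on low values both rises still passed.

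Within laminin-511, the chains also moved apart. LAMC1, the gamma-1 chain that most laminins share, was at 306, 339 and 303 normalized counts with control siRNA, 559.8, 591 and 592 for PKR siRNA 1, and 784, 806 and 772 for PKR siRNA 2. The 3 groups did not overlap and LAMC1 rose 1.84-fold and 2.49-fold (limma adjusted p = 1.89e-20 and 1.14e-30). With C16 its levels were 358, 356 and 386 with DMSO, 549.8, 497 and 527 at 400 nM, and 519, 508 and 490.4 at 800 nM, higher with C16 in every library but by 1.43-fold and 1.38-fold, short of 1.5. LAMA5, the alpha-5 chain, fell by 0.64 on the log2 scale with PKR siRNA 1 (SE 0.06) and by 0.73 at 800 nM C16 (SE 0.08), but its log2 value was 0.39 with PKR siRNA 2, short of 1.5-fold. Its fall with PKR siRNA 1 was under 1.5-fold without control siRNA library 2 or PKR siRNA 1 library 1 (-0.57 at the smallest). LAMB1, the beta-1 chain, fell by 0.66 with PKR siRNA 1 (SE 0.07) and did not pass elsewhere. So with PKR siRNA 1 the alpha-5 and beta-1 chains fell while the gamma-1 chain rose. LAMB2, the beta-2 chain that can take the place of beta-1, fell by 0.73 at 800 nM C16 (SE 0.11) and did not pass with either siRNA. LAMA4, an alpha chain typical of vessels and mesenchyme, passed with neither siRNA (0.12 and 0.52 on the log2 scale), although without control siRNA library 2 it did with PKR siRNA 2.

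The linkers other than NID1 fell or stayed short of the thresholds. AGRN, the heparan sulfate proteoglycan agrin that binds laminin and dystroglycan, fell by 0.69 on the log2 scale with each siRNA (SE 0.07), and its log2 value was -0.39 at 800 nM C16, short of 1.5-fold. COL18A1 fell by 0.71 with PKR siRNA 1 (SE 0.04) and by 0.85 at 800 nM C16 (SE 0.06), with -0.51 for PKR siRNA 2. NID2 was at -0.63 with PKR siRNA 1 (limma adjusted p = 0.0579), which passed without PKR siRNA 1 library 1 (-0.89), and fell by 0.73 with PKR siRNA 2 (limma adjusted p = 0.0255). The fall of NID2 did not pass by DESeq2, with no filter on low values, or without control siRNA library 1, control siRNA library 3 or PKR siRNA 2 library 1 (-0.79 to -0.68 over all libraries left out in turn).

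**Figure D3:**
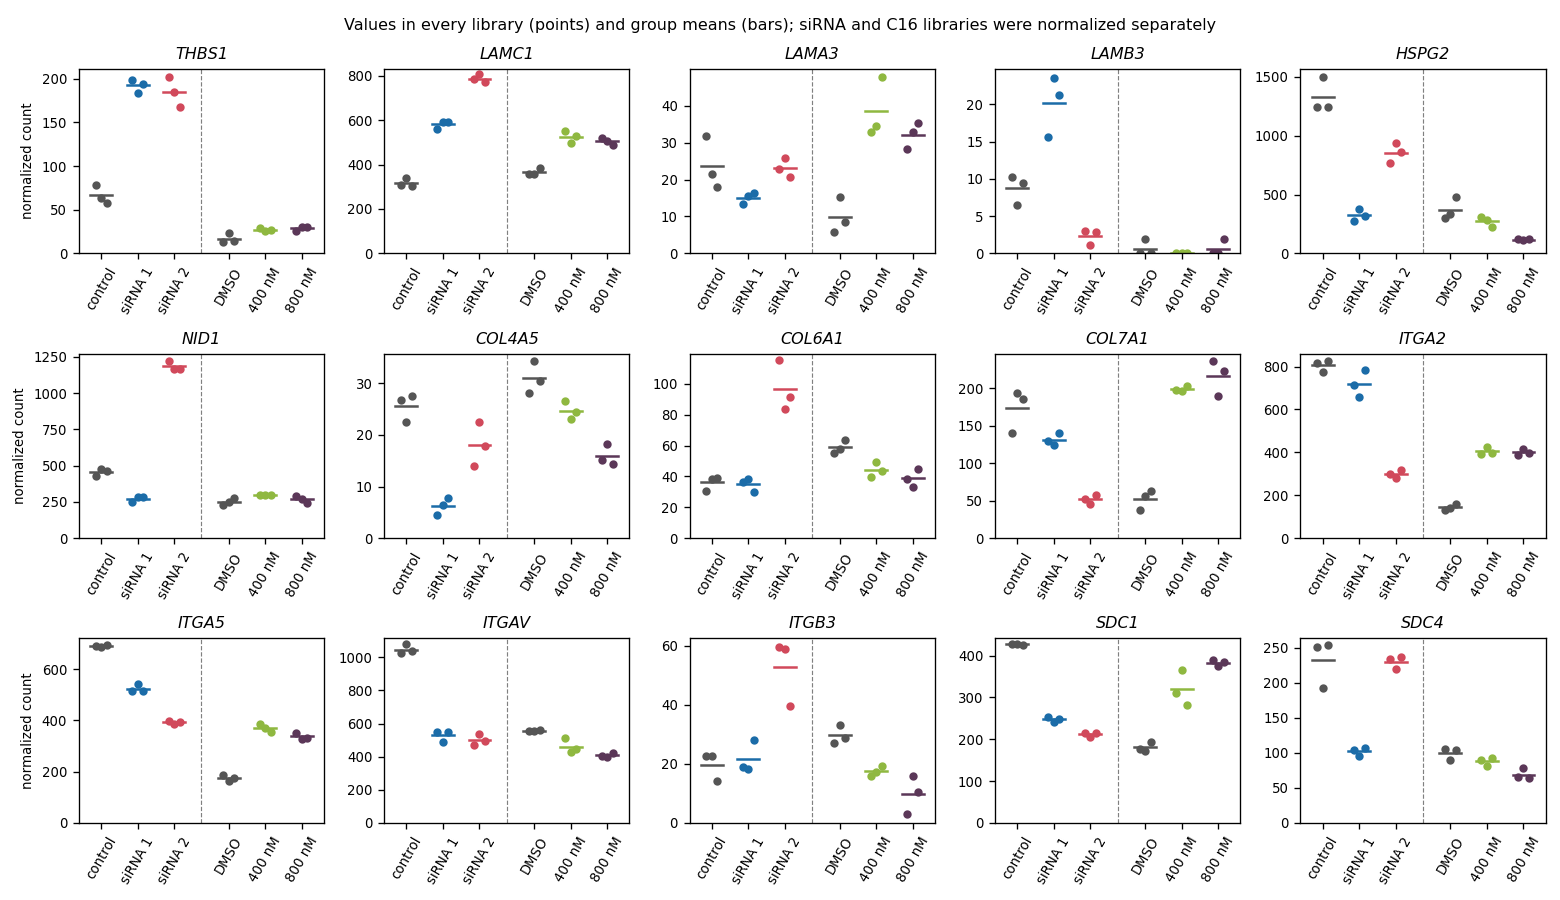
Normalized counts in every library (points) with group means (bars) for the 15 genes described library by library; each axis starts at 0, and the siRNA and C16 tables, parted by a dashed line, were normalized separately. SDC1, ITGA2, ITGA5 and COL7A1 lie lower with PKR siRNA 2 than with control siRNA and higher with C16 than with DMSO.

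Collagen genes gave different patterns. COL4A5, an X-linked chain of the collagen IV of specialised basement membranes, was at 26.7, 22.6 and 27.5 normalized counts with control siRNA, 4.44, 6.35 and 7.72 for PKR siRNA 1, and 13.9, 22.5 and 17.9 for PKR siRNA 2. PKR siRNA 1 lay below both other groups, and COL4A5 fell by 1.91 on the log2 scale (SE 0.30, limma adjusted p = 1.64e-07), while the change with PKR siRNA 2 did not pass (-0.50, limma adjusted p = 0.175). At 28.2, 34.3 and 30.5 with DMSO, 26.6, 23.1 and 24.5 at 400 nM and 15.1, 18.3 and 14.3 at 800 nM, it fell by 0.92 at the higher dose (SE 0.24). Per kb it had the highest level of the 3 collagen IV genes in each of the 6 groups.

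COL7A1, which encodes the anchoring fibrils that fasten the basement membrane to the stroma below, was at 141, 193 and 186 normalized counts with control siRNA, 130.0, 124 and 139.9 for PKR siRNA 1, and 51.7, 46.1 and 57.4 for PKR siRNA 2. The PKR siRNA 2 libraries lay lowest, a fall of 1.72 on the log2 scale (SE 0.12, limma adjusted p = 3.29e-21). With DMSO it was at 37.9, 56.2 and 63.2, with 400 nM C16 at 198, 196 and 202, and with 800 nM C16 at 236, 190.1 and 222. Both doses lay well above DMSO and overlapped each other, with rises of 3.82-fold and 4.14-fold and a difference between doses of 0.12 on the log2 scale (95% interval -0.13 to 0.36).

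COL6A1 and COL6A2 lie near each other on chromosome 21 and encode chains of 1 trimer, the beaded-filament collagen VI. COL6A1 was at 30.8, 38.7 and 38.9 normalized counts with control siRNA, 36.7, 38.1 and 29.9 for PKR siRNA 1, and 115, 83.6 and 91.2 for PKR siRNA 2. It rose 2.62-fold with PKR siRNA 2 (limma adjusted p = 7.12e-11), while the PKR siRNA 1 libraries overlapped those of the control. COL6A2 did not pass with PKR siRNA 2, at a log2 difference of 0.15 (95% interval -0.35 to 0.66) against an interval of 1.05 to 1.73 for COL6A1. With PKR siRNA 1 its log2 value was -0.46 and passed only without control siRNA library 2 (-0.80). With C16 COL6A1 went from 55.4, 58.1 and 64.0 with DMSO to 39.4, 49.6 and 43.6 at 400 nM and 38.3, 32.9 and 44.8 at 800 nM, a fall of 0.61 on the log2 scale. COL6A2 fell by 0.83 at 800 nM (SE 0.17). The fall of COL6A1 was under 1.5-fold without DMSO library 3 or 800 nM C16 library 2 (-0.50 at the smallest). COL5A1, a chain of the fibrillar collagen V, was 1.65-fold higher at 800 nM and did not pass (limma adjusted p = 0.0563), although it did without DMSO library 2, DMSO library 3 or 800 nM C16 library 2, with log2 values of 0.33 to 0.92 over the libraries left out.

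The collagen-binding receptor subunit ITGA2 fell with PKR siRNA 2 and rose with C16. ITGA2 was at 816, 776 and 826 normalized counts with control siRNA, 712, 660.3 and 783 for PKR siRNA 1, and 299, 279 and 319.8 for PKR siRNA 2. The PKR siRNA 2 libraries lay far below the rest, a fall of 1.43 on the log2 scale (SE 0.06, limma adjusted p = 2.33e-32). With C16 it rose from 132, 140.0 and 158 with DMSO to 394, 426 and 399 at 400 nM and 387, 414 and 399 at 800 nM. The doses overlapped each other and lay above DMSO, with rises of 2.83-fold and 2.79-fold (limma adjusted p = 2.8e-22 and 1.93e-22). ITGB1, its partner, differed from DMSO by 0.04 and -0.01 on the log2 scale (95% intervals -0.07 to 0.15 and -0.12 to 0.10).

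ITGA5, the alpha subunit of the main fibronectin receptor, was at 690.1, 686 and 693 normalized counts with control siRNA, 515, 542 and 514 for PKR siRNA 1, and 397, 386 and 393 for PKR siRNA 2. The 3 groups did not overlap, and the fall of 0.81 on the log2 scale with PKR siRNA 2 passed (SE 0.06) while -0.40 with PKR siRNA 1 was short of 1.5-fold. With C16 it stood at 187, 162 and 177 with DMSO, 385, 370.2 and 356 at 400 nM, and 350.0, 329 and 333 at 800 nM, rises of 2.11-fold and 1.92-fold. ITGA3, a laminin receptor subunit, fell by 0.69 with PKR siRNA 2 (SE 0.05) and rose 1.85-fold at 400 nM C16. At 800 nM its log2 value of 0.58 was just under the threshold, which it passed without DMSO library 3 or 800 nM C16 library 1 (0.70 at the highest). ITGA6, the other laminin-binding alpha subunit, passed in no comparison, with log2 values from -0.06 to 0.43.

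ITGAV, the alpha subunit that pairs with ITGB3, ITGB5, ITGB6 and ITGB8 to bind vitronectin and other matrix proteins, was at 1023, 1079.7 and 1036 normalized counts with control siRNA, 551, 486 and 551 for PKR siRNA 1, and 473, 536 and 493 for PKR siRNA 2. The siRNA groups overlapped each other and lay at about the same distance below the control, with falls of 0.98 and 1.06 on the log2 scale (SE 0.06 each, limma adjusted p = 5.38e-24 and 3.58e-26). With C16 the values were 556, 552 and 559.7 with DMSO, 513, 426 and 444 at 400 nM and 401, 401 and 422 at 800 nM, lower with C16 in every library but short of 1.5-fold (-0.28 and -0.45).

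Of its partners, ITGB5 fell by 0.66 on the log2 scale with PKR siRNA 1 (SE 0.06) and did not pass in the other comparisons with a control. ITGB3, the beta subunit of the vitronectin receptor, went the other way with PKR siRNA 2, from 22.6, 22.6 and 14.2 normalized counts with control siRNA and 18.9, 18.1 and 28.0 with PKR siRNA 1 to 59.7, 59.0 and 39.5. The PKR siRNA 2 libraries lay above the rest, a 2.59-fold rise (limma adjusted p = 4.83e-07). In the C16 table ITGB3 was at 27.2, 33.3 and 28.9 with DMSO, 16.0, 17.3 and 19.1 at 400 nM, and 3.03, 15.8 and 10.5 at 800 nM. Every 800 nM library lay below the DMSO and 400 nM groups, a fall of 1.74 on the log2 scale against DMSO (SE 0.32, limma adjusted p = 8.6e-06). Without 800 nM C16 library 1, the lowest, ITGB3 still fell, by 1.14 on the log2 scale. The difference between the doses then shrank to -0.40 and did not pass, nor did it without 400 nM C16 library 2 or 3, by edgeR (-0.87) or with no filter on low values (limma adjusted p = 0.0573), and DESeq2 gave it no adjusted p.

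ITGB1 stood near the threshold with PKR siRNA 1 and ITGB4 with PKR siRNA 2. With the other siRNA their log2 values were 0.25 for ITGB1 and -0.47 for ITGB4. ITGB1 was at 1972, 1759 and 1808 normalized counts with control siRNA and 2731, 2648 and 2899 with PKR siRNA 1, a difference of 0.58 on the log2 scale (SE 0.04). It passed by edgeR, by DESeq2, after median-of-ratios rescaling and without any of control siRNA library 1, PKR siRNA 1 library 1 or PKR siRNA 1 library 2 (0.63 at the highest). ITGB4, the hemidesmosomal partner of ITGA6, was at -0.58 with PKR siRNA 2 (SE 0.16). It passed without control siRNA library 2 or 3 or PKR siRNA 2 library 2 or 3, and its log2 values over all libraries left out in turn ran from -0.69 to -0.45.

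The receptors outside the integrins split. SDC1, a heparan sulfate proteoglycan that epithelia carry on their surface, was at 428, 426 and 425 normalized counts with control siRNA, 254, 240.4 and 249 for PKR siRNA 1, and 216, 206 and 214 for PKR siRNA 2. Both siRNA groups lay below the control, with falls of 0.78 and 1.00 on the log2 scale (SE 0.08 each). With C16 it rose, from 178, 172 and 193 with DMSO to 312, 366 and 282 at 400 nM and 388, 375 and 384 at 800 nM, by 1.75-fold and 2.11-fold (limma adjusted p = 3.66e-11 and 6.58e-16). The C16 doses did not overlap, but their difference of 0.27 was short of 1.5-fold.

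SDC4, the focal-adhesion syndecan, was at 252, 193 and 254 normalized counts with control siRNA, 104, 95.2 and 107 for PKR siRNA 1, and 235, 219.8 and 237 for PKR siRNA 2. PKR siRNA 1 alone lay apart, a fall of 1.17 on the log2 scale (SE 0.10, limma adjusted p = 1.51e-17), and the siRNAs differed by 1.17 (limma adjusted p = 8.6e-18). In the C16 table SDC4 was at 106, 89.5 and 104 with DMSO, 90.4, 81.9 and 92.6 at 400 nM and 65.6, 78.0 and 63.9 at 800 nM. The log2 value at 800 nM, -0.52, was short of 1.5-fold but passed without DMSO library 2 or 800 nM C16 library 2 (-0.61 at most in size). DAG1, the precursor of dystroglycan, fell by 0.72 at 800 nM C16 (SE 0.10), and its log2 values of -0.32 and 0.49 with the siRNAs did not pass, although the siRNAs differed by 0.81 (limma adjusted p = 1.38e-16).

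Other differences between the siRNAs were larger than 1.5-fold for LAMA5 (2.04-fold higher with PKR siRNA 2), COL4A5 (2.67-fold), COL6A1 (2.71-fold) and ITGB3 (2.37-fold). Lower with PKR siRNA 2, besides LAMB3, were COL7A1 (-1.33 on the log2 scale), ITGA2 (-1.26) and ITGA3 (-0.94). LAMA3 and COL6A2, at 0.59 and 0.61 on the log2 scale, passed in this comparison in the fit of all libraries but not with a pseudocount of 5, with no filter or by DESeq2. LAMA3 did not pass without any of 5 of the 6 libraries compared (all but PKR siRNA 2 library 3), nor COL6A2 without PKR siRNA 1 library 1 or 2 or PKR siRNA 2 library 2 or 3, where the values ranged down to 0.51 and 0.50.

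Set across the tables, which share no library, PKR siRNA 2 and 800 nM C16 changed 8 of the 26 genes tested in both. HSPG2 and THBS1 moved the same way. COL7A1, ITGA2, ITGA5 and SDC1 fell with PKR siRNA 2 and rose with C16, while COL6A1 and ITGB3 rose with PKR siRNA 2 and fell with C16. Thus 75.0% of the 8 were opposite, beside 80.0% of the 810 genes that both changed among all 9821 tested in both. With PKR siRNA 1 and 800 nM C16, 6 genes were changed by both, and 5 of them moved the same way, LAMA5, HSPG2, COL18A1, COL4A5 and THBS1, with SDC1 opposite. Over all genes 25.9% of 714 were opposite for that pair. The shares of these genes are thus near those of all genes.

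**Figure D4:**
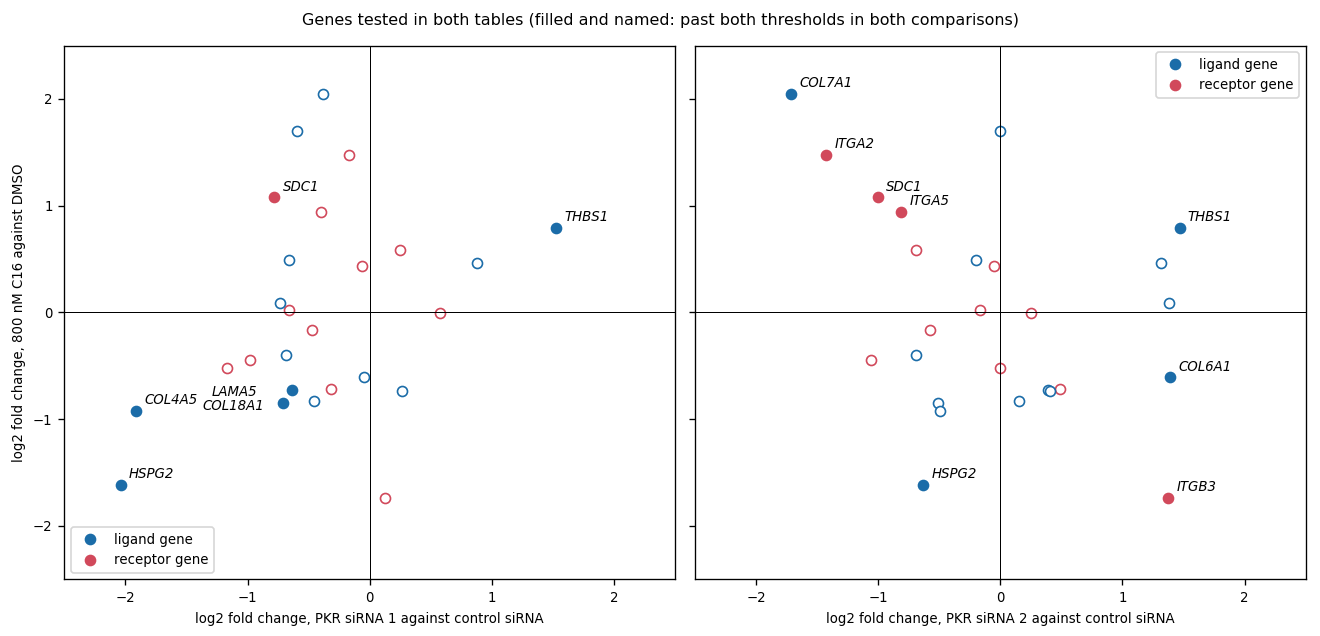
Log2 fold change at 800 nM C16 against DMSO plotted against that of each PKR siRNA against control siRNA, for the 26 genes tested in both tables, with ligand genes in blue and receptor genes in red; filled and named points passed both thresholds in both comparisons. For PKR siRNA 2, 6 of the 8 named genes lie in the quadrants of opposite direction, and for PKR siRNA 1 only SDC1 of 6 does.

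Genes outside the 37 were read from 4 lists of matrix and adhesion genes. Here a count of 0 is by limma, with the number at an unadjusted p under 0.05 in parentheses, and edgeR and DESeq2 gave 0 in the same places except for 1 further matrix gene that rose with PKR siRNA 1 by edgeR. The counts stand beside shares of all genes that rose and fell of 8.53% and 12.6% for PKR siRNA 1, 10.8% and 12.8% for PKR siRNA 2, and 11.6% and 14.1% for 800 nM C16. Of further matrix genes 0 rose (2) and 6 fell of 11 tested with PKR siRNA 1, 1 rose and 4 fell of 11 with PKR siRNA 2, and 3 rose and 3 fell of 10 at 800 nM C16. NTN4, a netrin of basement membranes, rose 1.86-fold at 800 nM C16 but fell with PKR siRNA 2. SPARC, a collagen-binding matricellular protein, fell by 2.63 on the log2 scale at 800 nM C16 and also fell with PKR siRNA 1. For collagen processing, 0 rose (3) and 3 fell of 12 with PKR siRNA 1, 3 rose and 2 fell with PKR siRNA 2, and 1 rose and 1 fell at 800 nM C16. The collagen lysyl hydroxylase PLOD2 and the collagen chaperone SERPINH1 rose 2.81-fold and 2.01-fold with PKR siRNA 2. PXDN, the peroxidase that crosslinks collagen IV, fell by 1.76 on the log2 scale with PKR siRNA 1 and also fell with PKR siRNA 2. The procollagen protease BMP1 fell by 0.97 with PKR siRNA 2.

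Beside the same shares of all genes, matrix proteases and inhibitors and further receptors were counted. Of matrix proteases and inhibitors, 1 rose and 8 fell of 11 with PKR siRNA 1, 3 rose and 4 fell with PKR siRNA 2, and 1 rose and 0 fell (2) of 9 at 800 nM C16. The membrane-type metalloproteinase MMP15 rose 2.69-fold with PKR siRNA 2 but fell with PKR siRNA 1, and ADAM9 rose 1.91-fold with PKR siRNA 1. The collagenase MMP1 and the metalloproteinase inhibitor TIMP1 fell with PKR siRNA 2, by 2.45 and 1.76 on the log2 scale. MMP1 also fell with PKR siRNA 1, while TIMP1 did not pass there. Of further receptors, 0 rose (0) and 1 fell of 11 with PKR siRNA 1, 2 rose and 2 fell with PKR siRNA 2, and 1 rose and 2 fell of 10 at 800 nM C16. Syndecan SDC2 rose 1.79-fold at 800 nM C16 and glypican GPC1 1.77-fold with PKR siRNA 2. BCAM, a receptor for the laminin alpha-5 chain, fell by 2.53 on the log2 scale at 800 nM C16 and also fell with PKR siRNA 1. The collagen receptor subunit ITGA10 fell by 1.25 with PKR siRNA 2.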

How the data were processed

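Poly(A) RNA of PANC-1 cells was sequenced as paired-end reads in 18 libraries, 3 per group. TopHat was used by the authors for mapping to hg38, featureCounts for counting per gene, and TMM within TCC for normalizing each of 2 tables. A deposited value is thus a normalized signal, the count of a gene scaled by 1 factor for its library. Dividing by what 1 read is worth gave whole numbers, to within 0.1 of a read, for 100.0% of values above 0, which recovered the reads. The strand setting is not given in the sources used here. The labels were used to group the samples, and they do not say whether replicates were separate cultures, so p-values measure only the spread between these libraries. Replicate pairs differed by more than sampling noise in part (chi-square per degree of freedom 1.03 to 1.63 in 18 pairs), and none were merged. The number of columns with no sample was 0.

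Log2 (normalized count + 1) of genes with a mean of at least 10 was fitted with limma 3.58.1 in R 4.3.3 (lmFit, eBayes with trend), two-sided, with the 9 libraries of a table in 1 fit and Benjamini-Hochberg adjustment over all genes tested. Fold changes are on that scale, which understates changes of low genes. The exact permutation test of 3 against 3 cannot go below 0.1 and was used only to say whether groups overlap. The alternatives changed the pseudocount (0.5 or 5), the filter (none, or a mean of 30), the scaling (median of ratios), the libraries (the 2 groups alone, or each library left out), the design (a replicate block) or the tool (edgeR 4.0.16 or DESeq2 1.42.0, on recovered reads). The fit was tested on simulated reads.

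Members, lists and markers were chosen with earlier results of these data known. Values in every library are given for the 8 genes with the largest change that passed with either PKR siRNA or with 800 nM C16, and for those that moved oppositely with the siRNAs or alike in all 3. From each list, the 2 largest rises and 2 largest falls over these comparisons are named, except for 1 gene that is not reported here. Coordinates are of GRCh38.p14, and promoter sequences are from RefSeq.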

Additional observations from a re-analysis of the deposited data

Results flagged for a closer look

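LAMB3 and NID1 moved in opposite directions with the PKR siRNAs, and for each the difference between the siRNAs passed by itself. LAMB3 was lower with PKR siRNA 2 than with PKR siRNA 1 by -2.72 on the log2 scale (95% interval -3.52 to -1.92, limma adjusted p = 1.61e-08), with no overlap between the groups. NID1 was higher by 2.12 (95% interval 1.99 to 2.25, limma adjusted p = 8.68e-44), again without overlap. EIF2AK2 did not pass between the same siRNA groups (-0.31 on the log2 scale, 95% interval -0.80 to 0.18). LAMB3 entered the tests only through its level with PKR siRNA 1, though its difference also passed with no filter on low values (limma adjusted p = 1.16e-06). It rests on at most 23.6 normalized counts in a library, and its rise with PKR siRNA 1 was lost without control siRNA library 2 (0.94) or PKR siRNA 1 library 2 (1.00) or 3 (1.07).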

How the results depend on the processing

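Of 69 values that passed, 11 did not under at least 1 alternative, and of 102 that did not pass, 11 did under at least 1, with 0 reversed. The number of genes that fell at 400 nM C16 was 0 in the fit of all libraries and 1 with a pseudocount of 5, with only the 2 groups fitted and by edgeR, where that gene was ITGB3. The number lower at 800 nM than at 400 nM C16 was 4 in the fit of all libraries and 2 by edgeR and by DESeq2. By edgeR LAMB2 and ITGB3 did not pass, and by DESeq2 LAMB2 did not pass and ITGB3 had no adjusted p. Why the tools differed was not tested. Over all genes, 231 were lower at 800 nM than at 400 nM C16 with a minimum mean of 30, which tests fewer genes, and 137 by DESeq2, in place of 394, and 51 were higher by DESeq2 in place of 113, with no adjusted p by DESeq2 for 3091 of the 9963 genes. With that minimum 800 fell at 800 nM C16 in place of 1403 and 296 at 400 nM in place of 543. The other counts of the 37 genes stayed within 1.5 times under every alternative, and leaving out 1 library gave 2 to 4 rises and 11 to 12 falls with PKR siRNA 1, 5 to 6 and 8 to 11 with PKR siRNA 2, and 6 to 8 and 8 to 10 at 800 nM C16.

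Labels number the replicates alike in each group, but same-numbered libraries did not deviate together, with correlations of -0.03 to 0.06 in the siRNA table and -0.08 to 0.04 in the C16 table, and 0 of 9 pairs over 0.1 in each. Libraries correlated best with their own number in 5 of 9 and 1 of 9 cases. With the replicate block 0 calls changed, with 3 rises and 11 falls for PKR siRNA 1. Depth limits the low genes most, with SEs from 0.04 for ITGB1 to 0.40 for LAMB3 in the siRNA table. No alternative was added after the data were seen.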
